A study of Mus musculus with 12 samples.

Results

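Matricellular proteins are secreted into the extracellular matrix but act there mainly as signals between cells rather than as structural fibres, and they bind cell surface receptors, growth factors and collagens. The 8 genes described here are the thrombospondins Thbs1, Thbs2, Thbs3 and Thbs4, the collagen-binding glycoprotein gene Sparc and its relative Sparcl1, the tenascin gene Tnc and the periostin gene Postn. They are 8 of the 54227 gene symbols in the table. The set was chosen on measured values, because Thbs2 was high in the population called sub and listed at 0 in the population called low. Values in sub and low are therefore given for Thbs2 as a description, and low against sub was tested for none of the 8 genes.

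All cells came from livers of C57Bl/6 mice that carry a Sox9EGFP transgene, in which EGFP reports on Sox9, a transcription factor of bile duct cells. The animals were fasted for 16 h, the livers were digested, and cells were sorted by fluorescence into 4 gates. Here neg is the EGFP-negative gate, sub the gate labelled as below low, low the next and high the brightest; strain, transgene and fast were common to all of them. Each gate had 3 libraries of 12000 sorted cells. Ages and sexes of the animals were not in the labels used here, and a gate is a window of fluorescence rather than 1 cell type.

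In liver, thrombospondins, SPARC, tenascin C and periostin are best known as products of stellate cells, fibroblasts and endothelial cells, and they increase in scar tissue. Thrombospondin 1 is a major activator of latent TGF-beta and a ligand of the receptors CD36 and CD47, and thrombospondin 2 shares these receptors and restrains blood vessel growth. SPARC and SPARC-like 1 bind collagen and set how fibrils assemble. Tenascin C and periostin are deposited during injury and development and signal through integrins.

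Thbs2, Tnc and Postn were listed at 0 in every low and high library and were above 0 in some neg and some sub libraries. Tnc and Postn also had zeros among their neg or sub libraries, and Thbs2 was chosen for its 0 in low. How many of all genes share this loose pattern was not counted. These 3 genes were looked at for shared short motifs upstream of their start. The sequences are the 250 bases before the RefSeq start (RefSeq annotation of GRCm38.p6), written 5′ to 3′ on the gene's strand, with motif matches in capitals. They are chr17:14694263-14694512 on the minus strand for Thbs2, chr4:64047016-64047265 on the minus strand for Tnc and chr3:54360857-54361106 on the plus strand for Postn.
Thbs2: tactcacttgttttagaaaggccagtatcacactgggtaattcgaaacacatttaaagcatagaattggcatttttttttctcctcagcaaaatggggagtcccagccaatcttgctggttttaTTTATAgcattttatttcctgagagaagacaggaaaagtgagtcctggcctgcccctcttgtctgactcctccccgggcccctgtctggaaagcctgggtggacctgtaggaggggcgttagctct
Tnc: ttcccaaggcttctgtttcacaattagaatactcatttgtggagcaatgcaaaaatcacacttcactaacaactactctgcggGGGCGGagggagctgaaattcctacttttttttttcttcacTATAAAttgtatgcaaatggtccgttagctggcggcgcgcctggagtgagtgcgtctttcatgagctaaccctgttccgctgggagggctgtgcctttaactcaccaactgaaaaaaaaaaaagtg
Postn: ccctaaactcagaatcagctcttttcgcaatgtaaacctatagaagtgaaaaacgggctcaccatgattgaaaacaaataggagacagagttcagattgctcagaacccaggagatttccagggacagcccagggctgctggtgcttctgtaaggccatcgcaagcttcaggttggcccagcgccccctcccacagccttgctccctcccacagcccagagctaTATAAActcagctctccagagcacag
Both strands were searched for 5 motifs. They were TATAAA, the letters of the TATA box, and GGGCGG, those of the GC box. The others were CATTCC, the core bound by TEAD factors, then TGANTCA, the site of AP-1, and the CArG box by its name. The printed Postn window held TATAAA 26 to 21 bases before its start, where a TATA box is usually found; RefSeq gives Postn a second start, with an upstream window at chr3:54359017-54359266 that held no match. Tnc held TATAAA 126 to 121 bases and GGGCGG 167 to 162 bases before the printed start, and the same TATAAA lies 205 to 200 bases before its other RefSeq start. Thbs2 held TATAAA at 126 to 121 bases before its start on the other strand, so the capitals read TTTATA. Of 32851 upstream windows of the same length, 12.4% held TATAAA and 32.7% held GGGCGG. A match is a string of letters and not a measured binding site, and CATTCC (12.6% of all windows), TGANTCA (6.75%) and the CArG box (1.47%) had no match in these 3 windows. Of the 8 genes, 6 had an entry in the sequence table, and Thbs1 and Sparcl1 did not.

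Values are normalised counts as deposited, with replicates given in the order 1, 2 and 3. Recovered depth was 8775387 to 15535588 reads per library, and 1 read was worth 0.691 to 1.22 normalised counts. Between 9039 and 12687 genes were above 0 in a library. Of 10 genes that cells generally use, 3 (Tbp, Hprt and Pgk1) were at 0 in at least 1 library, so a gene is described below as listed at 0 and not as absent. Reads without molecular identifiers are not independent molecules. Same-numbered libraries of the 4 gates share a code in their descriptions, which the labels do not explain. The labels do not say whether replicates came from separate animals, so p-values measure the spread between these libraries, which may be technical. A gene is said to have risen or fallen where limma's adjusted p, over 16128 genes, was under 0.05. The scale of each log2 fold change is that of log2(normalised count + 1). Of the 8 genes, 7 had a mean of at least 10 and entered the test. Thbs4, the thrombospondin of muscle and tendon (chromosome 13, 92751590 to 92794818, minus strand), was listed at 0 in all 12 libraries.

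**Figure D1:**
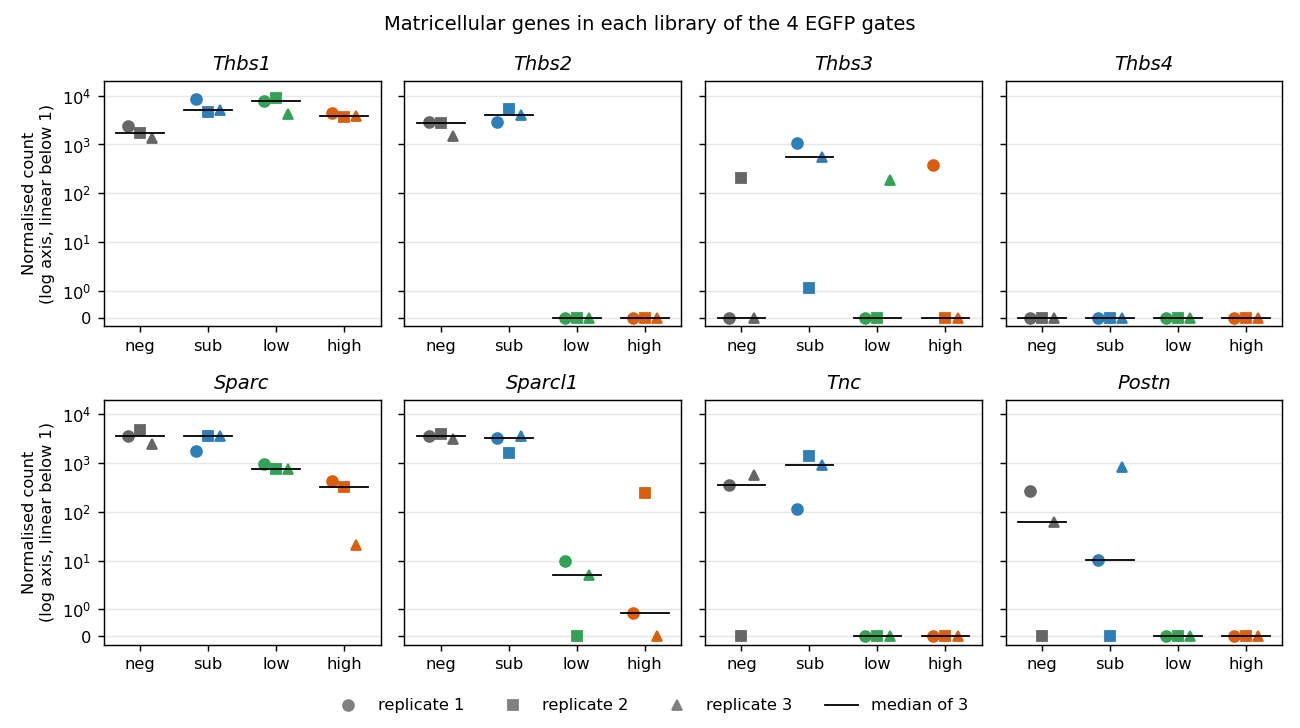
Normalised count of each of the 8 genes (vertical axis, log scale above 1 and linear below) in the 4 EGFP gates (horizontal axis); each point is 1 library, its shape is the replicate number and the bar is the median of 3. Thbs1 lies at 1338 or above in all 12 libraries, while Thbs2, Tnc and Postn are listed at 0 in all 6 low and high libraries.

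Thbs1 (chromosome 2, 118111876 to 118127133, plus strand; all gene positions from GENCODE M21 on GRCm38) was the only one of the 8 genes to rise in any of the comparisons tested. Its normalised counts were 2413, 1721 and 1338 in neg and 8376, 4548 and 5119 in sub. They were 7937, 8878 and 4178 in low and 4397, 3616 and 3924 in high. Every library of the 3 EGFP-positive gates lay above every neg library, and the 3 high libraries lay within a narrower range than those of sub or low. By the mean the order was low, sub, high, neg. Low and sub overlapped, and so did low and high, whereas all 3 sub libraries lay above the high ones.

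The mean of Thbs1 in sub was 3.30 times that in neg, with a log2 fold change of 1.71 ± 0.39 (SE) and limma's adjusted p at 0.0310. Of 6 members tested, it was the only one past the threshold in this comparison, where 1.04% of all genes tested were higher. This call was fragile: of the 12 fits that each left out a library it was kept only without neg 1 and without low 3, and in the other 10 the adjusted p lay between 0.0600 and 0.157. It was also lost without the filter (0.0816), without the variance trend (0.648), in the fit of only these 2 populations (0.580), in DESeq2 (0.0692) and in limma on 10 libraries (0.166). The direction and size changed less, since the log2 fold change lay between 1.45 and 1.93 over all 24 alternatives.

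In low, Thbs1 had a mean 3.84 times that in neg, a log2 fold change of 1.91 ± 0.39 and limma's adjusted p at 0.00615. It was the single member to rise there among 6 tested, and 2.55% of all genes were higher. The adjusted p was 0.0520 without low 1 and 0.0524 without low 2, so the call was lost in both cases. It was also lost without the variance trend (0.358) and in the fit of only these 2 populations (0.123), and was kept in 20 of 24 alternatives. High against neg gave 1.16 ± 0.39 with an adjusted p of 0.10; Thbs1 was not called in the brightest gate although its mean was 2.18 times that of neg. High was 0.662 times sub (adjusted p 0.685 in limma) and 0.569 times low (adjusted p 1), with 95% confidence intervals of the log2 difference of -1.36 to 0.26 and -1.56 to 0.06. The comparisons with neg share the same 3 neg libraries and are therefore not separate evidence.

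Platelets carry much thrombospondin 1, so their markers were read beside it. Of 10 platelet and megakaryocyte genes, 7 were listed at 0 in all 12 libraries, among them Pf4 and Ppbp, and the summed value of the list was 0 to 16.6 in neg, 0 to 495 in sub, 0 to 281 in low and 0 to 236 in high. Over the whole table, 33571 of 54227 genes were at 0 in every library, so such zeros are common. The part of platelets in the Thbs1 difference was not tested. Biliary markers moved with Thbs1 between neg and the other gates. The summed value of 12 biliary genes was 216 to 474 in neg, 27845 to 52009 in sub, 97329 to 120068 in low and 91191 to 95239 in high, and its part in the Thbs1 difference was not tested. In bulk libraries fewer cells of a type and less RNA per cell cannot be told apart.

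Thbs2 (chromosome 17, 14665500 to 14694235, minus strand) had counts of 2841, 2706 and 1513 in neg and 2832, 5255 and 4111 in sub, and was listed at 0 in all 3 low and all 3 high libraries. The neg and sub libraries overlapped by a narrow margin, since sub 1 lay between neg 1 and neg 2. The 6 values above 0 rest on 1567 to 4590 reads each, whereas the 6 libraries listed at 0 had totals of 10934801 to 14716505 reads. The rule for choosing genes named sub and low only. The members were picked with earlier results of these data known, so no comparison of Thbs2 is independent of the choice. The fit also took its spread from all libraries, sub and low among them. Between neg and high, Thbs2 was lower in high with an adjusted p of 0.00216 in limma. This call was kept in all 24 alternatives, the highest adjusted p being 0.0172. No fold is given against a gate listed at 0. Between neg and high, 3 of the 7 members tested fell (Thbs2, Sparc and Sparcl1), and 2.25% of all genes were lower.

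The values that chose Thbs2 were also read across the table, as a description with no test. At least 1000 normalised counts in each of the 6 neg and sub libraries were found for 760 genes, and 2 of them (0.263%), Thbs2 and Gvin1, were listed at exactly 0 in all 6 low and high libraries. Plvap and Fbn1 lay outside this count by values of about 1 read in low or high. With the minimum set to 500 the count was 9 of 1327, and with 1500 it was 2 of 525. Just outside the zero in low lay Sparcl1, with a median of 3296 in sub and a highest value of 9.65 in low; Tnc and Postn were inside it with medians in sub of 921 and 10.3.

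The closest genes to Thbs2 were found by the mean absolute difference of their log2 values over the 12 libraries, each gene centred on its own mean, among 9614 genes with a mean of at least 100. They were Plvap, a diaphragm protein of fenestrated endothelium (0.357), Fbn1, the microfibril protein fibrillin 1 (0.389), Igfbp3, a binding protein of insulin-like growth factors (0.60), the endothelin receptor gene Ednrb (0.608) and Gvin1 (0.637). The median over all genes compared was 5.98. The genes named were picked for the smallest differences, so their lying below this median is not a result. The same holds for the closest genes of other members below. For Thbs2 the differences also include the sub and low values that chose it. Plvap ranged from 2388 to 4315 in neg and from 2473 to 5205 in sub and did not exceed 1.01 in low or high. Fbn1 ranged from 1035 to 2911 in neg and from 2161 to 5316 in sub, with at most 0.865 in low or high.

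**Figure D2:**
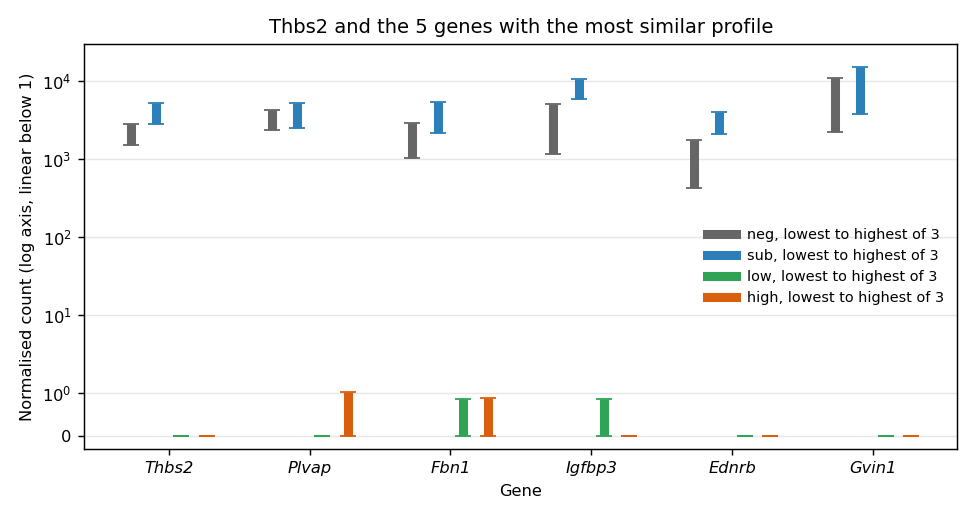
Range from the lowest to the highest of 3 libraries (vertical axis, normalised count, log scale above 1) for Thbs2 and the 5 genes with the most similar profile (horizontal axis), 1 bar per gate. The lowest neg or sub value is 423, for Ednrb, and the highest low or high value is 1.01, for Plvap. The 5 genes were picked for their similarity over these same libraries.

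Thbs1 and Thbs2 had similar levels per length in neg, and their ratio varied within sub. Per kb of exon, Thbs2 was 1.02, 1.36 and 0.981 times Thbs1 in neg and 0.293, 1.0 and 0.696 times in sub, in replicate order. In low and high the ratio was 0, because Thbs2 was listed at 0 there. Thbs1 per kb was 220 to 397 in neg, 749 to 1379 in sub, 688 to 1462 in low and 595 to 724 in high. Of the per-length sum of all 8 genes, Thbs1 made up 8.51% to 13.2% in neg, 21.6% to 38.2% in sub, 74.0% to 88.0% in low and 78.1% to 99.2% in high. This share is a description: its sum includes Thbs2, which was chosen for its values in sub and low, and it is higher wherever the other members are lower.

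**Figure D3:**
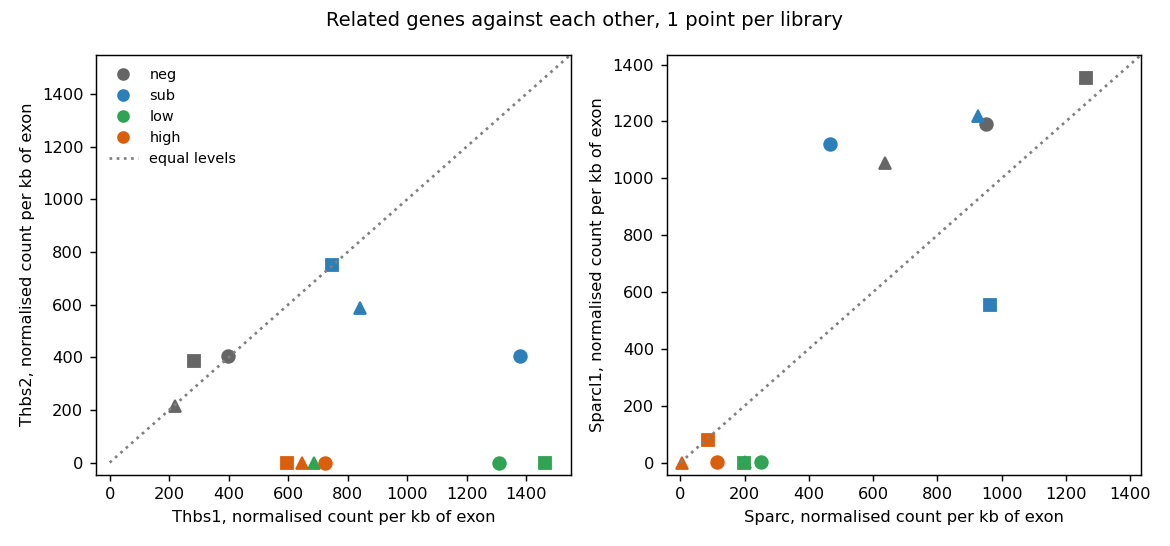
Thbs2 against Thbs1 (left) and Sparcl1 against Sparc (right), in normalised counts per kb of exon; each point is 1 library, coloured by gate and shaped by replicate, and the dotted line marks equal levels. The 6 low and high libraries lie at 0 for Thbs2 across Thbs1 levels of 595 to 1462, and at or below 252 on both axes for the Sparc genes.

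The genes with profiles closest to Thbs1 were Lrrfip1 (0.371), the integrin gene Itgav (0.393), the mitochondrial ribosomal RNA mt-Rnr2 (0.394), Map3k2 (0.398) and Smc3 (0.407), against a median of 2.75 over all genes compared. The level of mt-Rnr2 was 155118 to 211914 in neg and 399061 to 511496 in the other gates, and its part in the Thbs1 result was not tested. Itgav encodes the alpha v integrin chain, which binds thrombospondins and other matrix proteins.

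Thbs3 (chromosome 3, 89215180 to 89226837, plus strand), a pentameric thrombospondin best known in bone and cartilage, was scattered within every gate. It was listed at 0, 202 and 0 in neg, 1059, 1.14 and 544 in sub, 0, 0 and 183 in low, and 377, 0 and 0 in high. No gate had 3 libraries with like values, and the spread within sub alone ran from 1 read to 1437 reads. None of its 4 tests against neg or sub, nor high against low, passed in limma, with adjusted p from 0.708 to 1. Its whole span overlaps Mtx1 on the opposite strand (11658 bases), which was at 420 in neg 3, 256 in sub 3, 478 in low 3, 96.0 in high 2 and 0 in the other libraries; whether counting used strand is not given in the sources used here.

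Sparc (chromosome 11, 55394500 to 55423183, minus strand) had lower counts in low than in neg and sub, and lower ones again in high, and of these differences high against neg and high against sub passed the test. Its normalised counts were 3603, 4782 and 2417 in neg and 1761, 3649 and 3505 in sub. In low they were 954, 753 and 767, and in high 432, 327 and 20.4. Neg and sub overlapped, every low library lay below them, and every high library lay below every low one. The value in high 3 stands for 25 reads and is far under those of high 1 and high 2.

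Neg had 13.9 times the mean of high for Sparc, and the fall had a log2 fold change of -4.58 ± 0.97 and limma gave an adjusted p of 0.00773. Its value was -3.20 without high 3, where it still passed (adjusted p 0.0101). The fall was -5.37 without high 1 and -5.17 without high 2, and both passed. The call was lost without neg 1 (0.0627), without neg 2 (0.0698), without the variance trend (0.0680) and in the fit of only these 2 populations (0.159). Against sub, Sparc in high fell by 4.28 on the log2 scale (SE 0.97, adjusted p 0.0378 in limma), with an 11.4-fold higher mean in sub. It was the only 1 of 6 members called there, where 0.868% of all genes were lower. That call was kept in only 2 of the 12 fits with a library left out, without high 1 (-5.07, adjusted p 0.0446) and without high 3 (-2.91, 0.0338), and edgeR gave 0.0998. It was also lost without the filter (0.0788), without the variance trend (0.167), in the fit of only these 2 populations (0.351) and in limma on 10 libraries (0.191).

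Low against neg gave -2.08 ± 0.97 for Sparc with an adjusted p of 0.298 and did not pass, although the mean in neg was 4.37 times that in low and the libraries did not overlap. Without high 3 it passed (0.0413). High against low gave -2.50 ± 0.97 (unadjusted p 0.0181, adjusted p 1), with no overlap and a mean in low 3.17 times that in high. Sub against neg gave -0.30 (adjusted p 1), with a 95% confidence interval of -2.32 to 1.73. For low against sub, which was not tested, the mean in sub was 3.60 times that in low.

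Sparcl1 (chromosome 5, 104079111 to 104113733, minus strand), also called hevin, stayed high in neg and sub and was near 0 in low. It had counts of 3495, 3976 and 3098 in neg and 3296, 1633 and 3577 in sub. Low gave 9.65, 0 and 4.93, and high gave 0.865, 238 and 0. High 2 was the only library of these 6 above 13 reads, with 235 reads.

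From neg to low Sparcl1 fell by 9.78 on the log2 scale (SE 2.07), and limma's adjusted p was 0.00818. It was 1 of 6 members to do so, and 2.15% of all genes were lower. The call was kept in all 24 alternatives, with adjusted p up to 0.0483, and the value was -10.49 without low 1 and -8.79 without low 2. From neg to high it fell by 8.84 (SE 2.07, adjusted p 0.0161). This call was lost without neg 1, neg 2, neg 3, high 1 or high 3 (adjusted p 0.0635 to 0.0813) and in the fit of only these 2 populations (0.128). Among these, its log2 value was -7.83 without high 1 and -7.38 without high 3. Without high 2 it was -11.33 with an adjusted p of 0.00187. High against sub gave -8.46 ± 2.07 with an adjusted p of 0.0589 in limma, just outside the threshold. It passed without high 2 (0.0107), and on the 10 libraries that left out high 2 in edgeR (2.17e-08), DESeq2 (5.00e-09) and limma (0.0184). With high 2 kept, it passed in limma at a pseudocount of 5 (0.0207) and with a mean of at least 100 (0.0465). High against low gave 0.94 (adjusted p 1), and sub against neg -0.39 (adjusted p 1, 95% confidence interval -4.73 to 3.95).

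Per kb of exon, Sparcl1 was 1.07 to 1.65 times Sparc in neg and 0.577 to 2.41 times in sub. The sub ratio was lowest in sub 2 and highest in sub 1, so the 3 sub libraries disagreed on which of the pair was higher. In low the ratio was at most 0.0130, and in high it was 0.00258, 0.935 and 0, so high 2 lay within the range of sub. Sparcl1 overlaps Gm26703 on the opposite strand over 4517 bases, and Gm26703 was at most 306, in neg 2. The genes with profiles closest to Sparcl1 were Gata4 (0.737), a transcription factor of liver endothelial and stellate cells, followed by Jcad (0.920), Spon1 (0.941), Abi3bp (0.987) and Ace (1.01), against a median of 4.95. Gata4 was 1704 to 1917 in neg, 1086 to 1332 in sub, 0 in low and at most 77.8 in high. For Sparc they were Swap70 (0.543), Rasal2 (0.591), Fmnl2 (0.666), AC160336.1 (0.686) and Rhoj (0.719), against a median of 3.02.

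**Figure D4:**
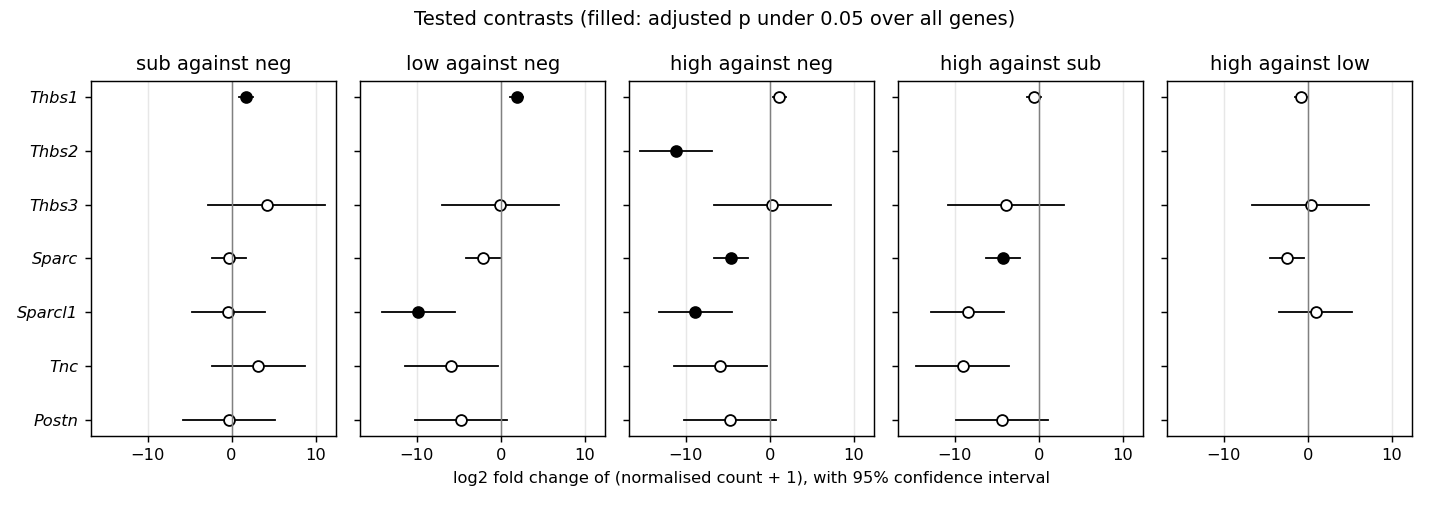
Log2 fold change of normalised count + 1 (horizontal axis) with its 95% confidence interval for each member (vertical axis) in the 5 tested comparisons; filled points passed an adjusted p of 0.05 over all genes. Thbs1 has the narrowest intervals, and values of genes listed at 0 in a gate depend on the pseudocount of 1.

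Tnc (chromosome 4, 63959785 to 64047015, minus strand), whose upstream bases are printed above, had counts of 348, 0 and 565 in neg and 116, 1385 and 921 in sub, and was listed at 0 in all low and high libraries. Neg 2 was at 0 as well, so neg overlapped with low and high, while the 3 sub libraries lay above all of these. Low against neg (adjusted p 0.278), high against neg (0.271) and high against sub (0.130) did not pass in limma. All 3 passed without neg 2, with adjusted p of 0.0308, 0.0303 and 0.0344, and in DESeq2 on 10 libraries (0.00161, 0.00708 and 0.00523). DESeq2 called 1900, 1857 and 1570 of all genes in these comparisons. The fit without neg 2 and DESeq2 were 2 of 24 alternatives in each comparison; edgeR on the same 10 libraries gave 0.138, 0.371 and 0.555, and limma on them 0.354, 0.415 and 0.443. Tnc overlaps 8030451A03Rik on the opposite strand, which was listed at 0 in every library. Its closest profiles were Rftn1 (0.432), Mrc2, a collagen uptake receptor (0.510), Cygb, the cytoglobin of stellate cells (0.593), Nxn (0.598) and Ccbe1 (0.642), against a median of 4.63. Cygb was 7.34 to 985 in neg, 118 to 1074 in sub and 0 in all low and high libraries.

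Postn (chromosome 3, 54361109 to 54391037, plus strand) was uneven between the libraries of neg and between those of sub. It had 272, 0 and 60.8 in neg and 10.3, 0 and 814 in sub, and was listed at 0 in low and high. Sub 3 held 816 reads, whereas sub 1 held 14. None of its tests passed in limma or in any alternative, with adjusted p in the fit of all libraries from 0.402 to 1. The genes closest to it were BC023105 (0.628), Phf5a (0.649), Gm44005 (0.753), Hhip (0.775) and Gm9917 (0.795), and for Thbs3 they were Gcsh (1.20), Vgll3 (1.82), Lancl2 (1.83), Tor1a (1.92) and Olfr624 (1.93). Such profiles rest on a few libraries above 0.

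Between the brightest gates, none of the 4 members tested (Thbs1, Thbs3, Sparc and Sparcl1) passed in high against low in limma or edgeR, nor in DESeq2, which gave no adjusted p for Thbs3, and 1 of them, Sparc, had an unadjusted p under 0.05. The share of all genes called was 0.0% in limma on 12 libraries, with 684 of 16128 genes at an unadjusted p under 0.05. With 1 library left out limma called up to 35 genes. On the same 10 libraries edgeR called 74, DESeq2 751 and limma 60. Thbs2, Tnc, Postn and Thbs4 were at 0 in both gates and give no comparison.

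Markers of the cells known to make these proteins also differed between gates. The summed value of 14 stellate genes was 11076 to 14795 in neg, 15066 to 19769.6 in sub, 635 to 1931 in low and 489 to 1654 in high. Of these genes, 7 were at 0 in all low libraries and 8 in all high libraries, among them Lrat, Hgf and Cygb in both. The share of all genes at 0 in all 3 libraries of a gate was not counted, here or for the lists below. The sum of 12 endothelial genes was 103854 to 138715 in neg, 29452 to 47542 in sub, 724 to 1983 in low and 738 to 1170.3 in high. Smooth muscle genes (8) summed to 6349 to 16472 in neg and sub and to 1299 to 2368 in low and high, and portal fibroblast genes (12) to 10551 to 25958 and 5845 to 9909. Few genes carried these sums in low and high. Only 2 portal fibroblast genes and 1 smooth muscle gene were above 0 in all 3 libraries of low, and likewise of high. Median log2 fold changes against neg were -3.96 in low and -5.27 in high for portal fibroblast genes, and -3.46 and -3.76 for smooth muscle genes. Hepatocyte genes (12) summed to 395 to 1262 in neg, 4572 to 11488 in sub and 14033 to 22288 in low and high. Mesothelial genes (8) stayed between 537 and 3337, and the sum of 10 lymphocyte genes was at most 1142 in any library. In neg and sub the sum of 10 macrophage genes was 0 to 474 and 0 to 587. It was 670.2 to 1219.7 in low and 519 to 1288 in high. Of these 10 genes, 8 were at 0 in all 3 low libraries and 6 in all 3 high ones, and 4 were tested. Against neg, 1 of the 4, Csf1r, was called higher in low (adjusted p 0.0162 in limma) and in high (0.0189). Of all genes, 2.55% and 2.44% were higher in these comparisons. The part of these cells in the results was not tested.

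Receptors and binding partners were read from a list of 35 genes, of which 34 were tested. Fn1, the matrix glycoprotein fibronectin, rose in all 3 EGFP-positive gates. It had 3931, 3754 and 1871 in neg, 12638, 10695 and 14597 in sub, 17422, 12659.7 and 12172 in low, and 21161, 19213 and 18491 in high. Its log2 fold change against neg was 2.05 ± 0.25 in sub (adjusted p 6.25e-05 in limma), 2.20 ± 0.25 in low (1.32e-05) and 2.70 ± 0.25 in high (8.35e-07). In sub it was the only gene of the list called higher, none was called lower, and 1.04% and 0.149% of all genes were called higher and lower. Leaving out neg 1 gave 2 higher, and leaving out neg 3 gave 1 lower. The median of the list was -0.04 against 0 over all genes.

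In low against neg, 4 partners rose and 8 fell, against 2.55% and 2.15% of all genes, and the list's median was -0.63 against 0. Besides Fn1, those that rose were Sdc4, a heparan sulphate receptor (2.51 ± 0.39, adjusted p 0.000536 in limma), Itgav (2.56 ± 0.59, 0.0145) and Itga3, the laminin-binding alpha 3 integrin chain (3.46 ± 0.91, 0.0333). Itgav was 627, 493 and 633 in neg and 3499, 4767 and 2431 in low, with no overlap. The 8 that fell were the endocytic receptors Lrp1 and Stab1, the integrin chain Itga8, Tgfb1 and the collagen genes Col1a1, Col1a2, Col3a1 and Col4a1. Lrp1, which takes up thrombospondins from the cell surface, was 12055, 10163 and 10797 in neg and 2508, 1268 and 2748 in low. Stab1, a scavenger receptor that clears SPARC, was 17503, 20196 and 9939 in neg and 203, 44.2 and 11.5 in low. The number lower was 5 without neg 1 and 4 without each of neg 2, neg 3, low 2 and low 3.

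In high against neg, 2 partners rose (Fn1 and Sdc4) and 8 fell, against 2.44% and 2.25% of all genes, with a median of -1.55 against 0.13. Those that fell were Lrp1, Stab1, Itga8, Scarb2 and the same 4 collagen genes. High against sub gave 0 higher and 5 lower (Lrp1, Stab1, Col1a1, Col3a1 and Col4a1), against 0.118% and 0.868% of all genes, with a median of -0.67 against 0.20. Without neg 2, 1 gene was higher. Col3a1 was 6526, 4121 and 6977 in sub and 0 in all 3 high libraries (adjusted p 0.00386 in limma). For high against low no partner was called. The thrombospondin receptors CD36 and CD47, singled out after their values were seen, did not pass in any of the 5 comparisons tested. Cd47, which was not called, was 3852, 2911 and 3137 in neg and between 36.9 and 1616 in the other gates. How many of all genes separate neg from the other gates in this way was not counted.

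Other matricellular genes were read from a second list of 34, of which 25 were tested. Spp1, which encodes osteopontin and is also a biliary marker, and Ccn1, a growth-regulating protein of the CCN family, rose in all 3 gates against neg. Spp1 was listed at 0 in all 3 neg libraries and was 13719, 8527 and 7705 in sub, 29882, 32021 and 43641 in low, and 27254, 28249 and 36557 in high. Ccn1 was 3495, 1589 and 2749.7 in neg and 22781, 23924 and 23267 in high. Its log2 fold change there was 3.23 ± 0.27 (adjusted p 2.1e-07 in limma), and it also rose from sub to high (1.32 ± 0.27, 0.0243). In sub against neg these 2 were the only genes called of the list, where 1.04% of all genes were higher and 0.149% lower, with a median of -0.27 against 0 for all genes.

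Low against neg gave 2 higher and 5 lower in this list, against 2.55% and 2.15% of all genes, with a median of -4.95 against 0. The 5 that fell were Tgfbi, Fbln1, Emilin1, Bgn and Dcn, of which Bgn and Dcn encode the small proteoglycans biglycan and decorin. Without neg 1, neg 2 or neg 3 the number lower was 3. High against neg gave 2 higher and 8 lower (Tnxb, Smoc2, Tgfbi, Fbln1, Fbln5, Hmcn1, Emilin1 and Dcn), against 2.44% and 2.25% of all genes. The median was -4.82 against 0.13, and 5 were lower without each of neg 1, neg 3, high 2 and high 3. Tnxb, a tenascin of loose connective tissue, was 7682, 4191 and 6291 in neg, 6193, 7358 and 10267 in sub, 328, 202 and 207 in low, and 133, 24.3 and 0 in high. Its fall from neg to high had an adjusted p of 0.00038 in limma. Fbln1, a basement membrane protein gene, was 998, 1503 and 3149.5 in neg, 701, 2222 and 441 in sub, and 0 in all 6 low and high libraries, the same zeros as Thbs2 and Tnc.

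High against sub gave 1 higher, Ccn1, and 7 lower in this list (Tnxb, Tgfbi, Fbln1, Fbln5, Hmcn1, Emilin1 and Dcn), against 0.118% and 0.868% of all genes, with a median of -4.11 against 0.20. The number lower was 1 without sub 2, 3 without each of neg 1, neg 2, neg 3, sub 1, sub 3 and high 2, and 4 without high 1 or high 3. No gene of the list was higher without sub 1, sub 2, sub 3, low 1, high 1, high 2 or high 3, and 2 were higher without neg 2. None of this list was called in high against low, where its median was -0.23.

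**Figure D5:**
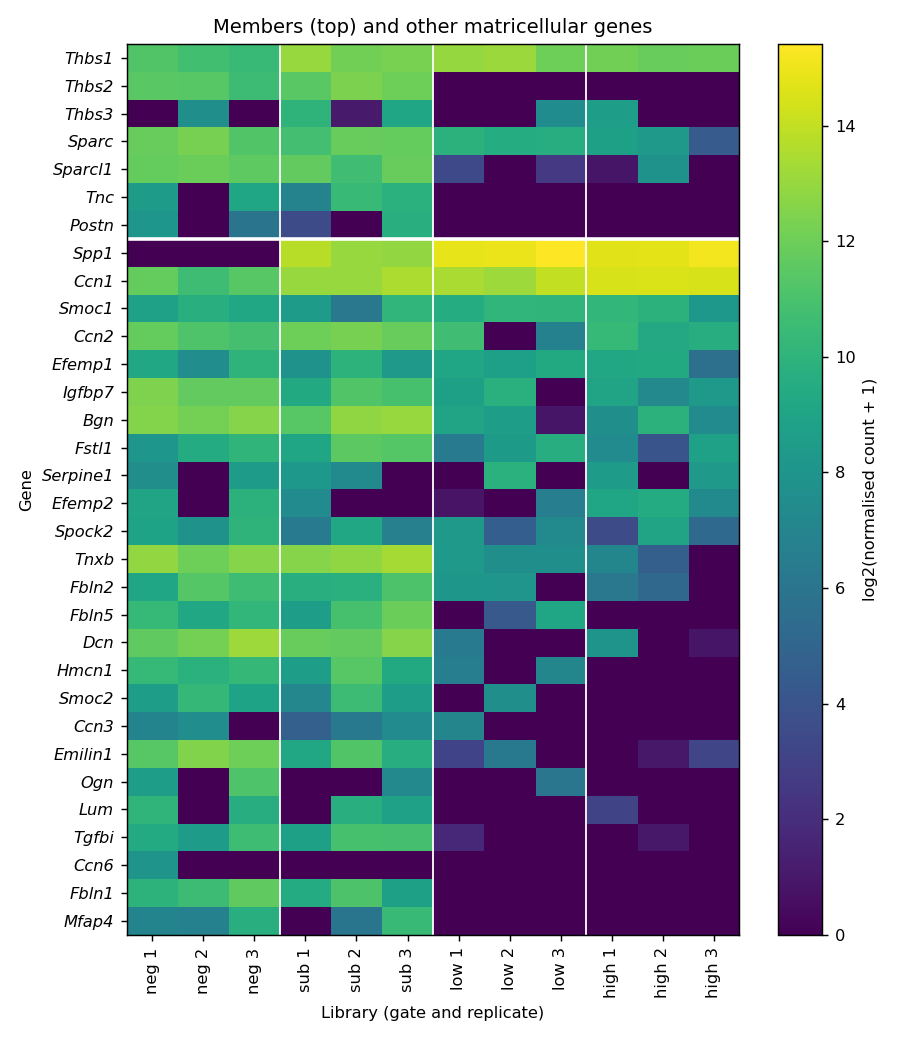
Log2(normalised count + 1) by colour for the 7 tested members (above the white line) and the 25 tested genes of the list of other matricellular genes (rows) in the 12 libraries (columns, grouped by gate). Spp1 is dark in neg and brightest in low and high, whereas Thbs2, Tnc and Fbln1 are at 0 in all 6 low and high libraries.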

How the data were processed

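The signal per gene in each library is a normalised count that the authors deposited, made with Salmon, DESeq2 1.26.0 and the mm10 build, per the submitters' processing notes; the annotation and the use of strand are not given in the sources used here. In each of the 12 columns 100% of values above 0 were whole multiples (tolerance 0.01) of the value of 1 read. Values were transformed to log2(normalised count + 1), genes with a mean under 10 were dropped, and limma 3.58.1 in R 4.3.3 (lmFit, eBayes with a variance trend, two-sided) was fitted to 16128 genes in all 12 libraries, with Benjamini-Hochberg adjustment at 0.05. Alternatives were pseudocounts of 0.5 and 5, other filters and scalings, a replicate block, a fit without the variance trend, one of only 2 populations, each library left out, and edgeR 4.0.16 and DESeq2 1.42.0 on recovered reads. The count tests used 10 libraries, without sub 3 and high 2, where 1 read is worth about 1; limma on the same 10 was added after seeing the data. The test was tested on simulated data. Named genes are the 8 members, the 5 genes most like each and genes called in the 2 lists of related genes, with marker sums. Also named are the receptors CD36 and CD47, some single marker genes, genes that overlap a member, and genes that cells generally use. The members and lists were chosen with earlier results of these data known. Protein sequences were not analysed here. Library totals were 8775387 to 15535588 reads, and precision comes from the spread of 3 libraries a gate.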

Additional observations from a re-analysis of the deposited data

How the results depend on the processing

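The number of members past the threshold was 1 in sub against neg, 2 in low against neg, 3 in high against neg, 1 in high against sub and 0 in high against low. With the replicate block these were again 1, 2, 3, 1 and 0, and the block changed no call of a member; over all genes it gave 180, 720, 715, 130 and 1 calls against 192, 757, 757, 159 and 0. Same-numbered libraries share a code whose meaning the labels do not give, so whether they are pairs is not known. Over 18 such pairs the correlation of deviations from the gate means was -0.02 to 0.03. Over 36 pairs of different number it was -0.04 to 0.02, an overlapping range. In 24 of 36 comparisons a library correlated best with its own number, a hint from the data and not from the design. Each comparison chose among 3 libraries, and the comparisons reuse the same pairs, so they are not independent. Without the filter, without the variance trend and in the fit of only 2 populations, sub against neg and high against sub gave 0. Low against neg gave 1 without the trend and 1 in the fit of only 2 populations, and high against neg gave 1 in the latter. Without the trend, high against neg lost Sparc (adjusted p 0.0680 in limma) and kept Thbs2 and Sparcl1. DESeq2 gave 0 in sub against neg and 3 in high against sub. Besides the members called in limma on all libraries, DESeq2 called Tnc in low against neg (adjusted p 0.00161) and in high against neg (0.00708). DESeq2 called more of all genes than limma on all libraries. Its counts were 1651 in sub against neg, 1900 in low against neg, 1857 in high against neg and 1570 in high against sub. Limma on 10 libraries gave 0 in sub against neg. A pseudocount of 5 and a mean of at least 100 each gave 2 in high against sub, with 200 and 188 of all genes called. EdgeR gave 1 there, with 269 of all genes called, but this was Sparcl1 and not Sparc. Limma on the same 10 libraries (0.0184) and without high 2 (0.0107) likewise called Sparcl1 and not Sparc. Without neg 2 limma called Tnc (0.0344) and not Sparc. With each library left out in turn the counts were 0 to 1 in sub against neg, 1 to 3 in low against neg, 1 to 3 in high against neg, 0 to 1 in high against sub and 0 in high against low.

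Signs reversed only for changes that were not called. With each library left out in turn, sub against neg ranged from -2.93 to 1.91 for Postn and from -0.56 to 0.045 for Sparc. Thbs3 ranged from -2.55 to 2.51 in low against neg, from -2.55 to 2.85 in high against neg and from -2.51 to 2.85 in high against low, and Sparcl1 in high against low from -1.54 to 2.41. On 10 libraries Sparcl1 gave -3.27 in edgeR, -3.54 in DESeq2 and -1.54 in limma there. The cause of these changes was not tested.

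Over all genes, calls ranged over the alternatives from 0 to 1651 in sub against neg, 203 to 1900 in low against neg, 341 to 1857 in high against neg, 8 to 1570 in high against sub and 0 to 751 in high against low. Quantile normalisation moved the median of all genes from 0.13 to 0 in high against neg and from 0.20 to 0.04 in high against sub. The median standard error of a log2 fold change over all genes was 2.35, so differences of a few fold were not detectable for most genes.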
